A study of Rattus norvegicus with 14 samples.

Results

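Sv2a, Sv2b, Sv2c, Syt1, Snap25, Stx1a, Vamp2 and Syn1 are 8 genes of the synaptic vesicle and of the machinery that fuses it with the nerve terminal membrane. They were taken by name from the 22601 genes quantified in rat hippocampus, with earlier results of these data known. All 8 were present in all 14 libraries, and all 8 were among the 12744 genes tested, those that reached 1 FPKM in 4 libraries or more. FPKM is the number of sequenced fragments scaled by transcript length and by library size, so levels of different genes can be set side by side.

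The animals were Wistar rats of wild type genotype that weighed 180 to 220 g, and RNA was taken from about 100 mg of hippocampus. The control group (n = 4) received vehicle. The PTZ group (n = 5) received vehicle and pentylenetetrazole, which provokes seizures by blocking GABA-A receptors. The PTZ+Q808 group (n = 5) received PTZ and Q808, for which the labels give a code name and no structure. Every animal given Q808 was also given PTZ, so Q808 without PTZ was not analysed here. Dose, time from injection to sampling, age, sex and a measure of seizures are not stated in these sources. The group sizes equal the numbers of rats in the design, but no label ties a library to an animal, so the p-values measure the spread between these libraries.

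Transmitter is released when a vesicle docks at the active zone, is primed, and fuses as calcium enters the terminal. On the vesicle sit the SNARE protein synaptobrevin 2 (Vamp2), the calcium sensor synaptotagmin 1 (Syt1), synapsin I (Syn1), which tethers vesicles into a reserve pool, and the SV2 glycoproteins (Sv2a, Sv2b, Sv2c). SNAP-25 (Snap25) and syntaxin 1A (Stx1a) sit on the terminal membrane and zip together with synaptobrevin 2 to drive fusion. SV2A is the binding site of the antiseizure drugs levetiracetam and brivaracetam, and SV2 proteins serve as receptors for botulinum neurotoxin A, which cleaves SNAP-25.

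Hippocampal identity was checked with markers. Prox1 and C1ql2 of dentate granule cells and Wfs1 of CA1 pyramidal cells were present in every library, and Prox1 ran from 4.26 to 12.1 FPKM. Others of the 8 listed subfield markers were low. Fibcd1 ran from 0.689 to 3.54 FPKM, Zbtb20 from 0.995 to 4.14, and Dsp, below the filter, from 0.201 to 0.666. Bok ran from 22.0 to 41.0 FPKM and Man1a1 from 8.98 to 16.3. Some libraries stood apart. Control replicate 2 held 599 FPKM summed over all 10 striatal markers listed, against 64.0 to 87.4 in the other libraries, and its Drd2, the dopamine D2 receptor, was at 29.4 FPKM against 1.12 to 2.43. Its 5 thalamic markers summed to 89.3 FPKM, against 25.7 to 63.1 elsewhere. PTZ+Q808 replicate 3 held 687 FPKM over 7 pituitary hormone and lineage genes, led by prolactin (Prl, 395 FPKM), against 2.61 to 12.6 elsewhere. The choroid plexus transcript Ttr was at 54.5 to 329 FPKM in control replicate 3, PTZ replicate 2 and PTZ+Q808 replicate 1, and at 1315 to 7125 FPKM in the other libraries. The lowest of these others, PTZ+Q808 replicate 5, was also low in other plexus markers. Its Kl was at 2.58 FPKM, against 0.548 to 1.78 in the 3 libraries low in Ttr and 6.72 to 32.0 elsewhere. It was kept where the 3 libraries low in Ttr were left out. Summed over 9 meningeal markers, the controls held 75.0 to 140 FPKM, PTZ replicates 1 and 2 held 338 and 169 and the other PTZ libraries 91.2 to 106, while PTZ+Q808 replicates 1, 2 and 3 held 226, 220 and 279 and the other libraries of that group 90.8 and 111; the part of these markers in the changes of the 8 genes was not tested. Summed over 10 pan-neuronal markers, the libraries held 1751 to 2196 FPKM in control, 1710 to 2143 in PTZ and 1802 to 2206 in PTZ+Q808. In such bulk tissue, fewer cells of a type and less RNA per cell cannot be told apart. Relative depth differed little, from 0.858 in PTZ+Q808 replicate 2 to 1.04 times that of control replicate 1, and absolute depth is unknown.

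At the level of the whole gene set, no release gene passed the test in any comparison. In PTZ against control, 0 of the 8 were called at a limma adjusted p under 0.05, where 0.0314% of all tested genes were called, and 0 of 8 had an unadjusted p under 0.05 against 8.11% of all genes. In PTZ+Q808 against PTZ, 0 of 8 were called against 0% of all genes, and 0 of 8 had an unadjusted p under 0.05 against 6.14%. In PTZ+Q808 against control, 0 of 8 were called against 2.87% of all genes, and 1 of 8, Snap25, had an unadjusted p under 0.05 against 20.7%. That last 2.87%, 366 genes, depended on which library was left out. It was 17, 40 and 54 genes without control replicate 1, 3 or 4, and 281 without control replicate 2. It was 32, 72 and 38 without PTZ+Q808 replicate 1, 3 or 5, 347 without replicate 2 and 673 without replicate 4. Leaving out 1 PTZ library gave 283 to 375 genes. The median log2 change of the 8 genes was 0.08, -0.03 and 0.08 in these 3 comparisons, and that of all tested genes was -0.01, 0.00 and -0.02. PTZ is used in the first and second comparisons and control in the first and last, so the 3 sets of values are not independent.

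**Figure D1:**
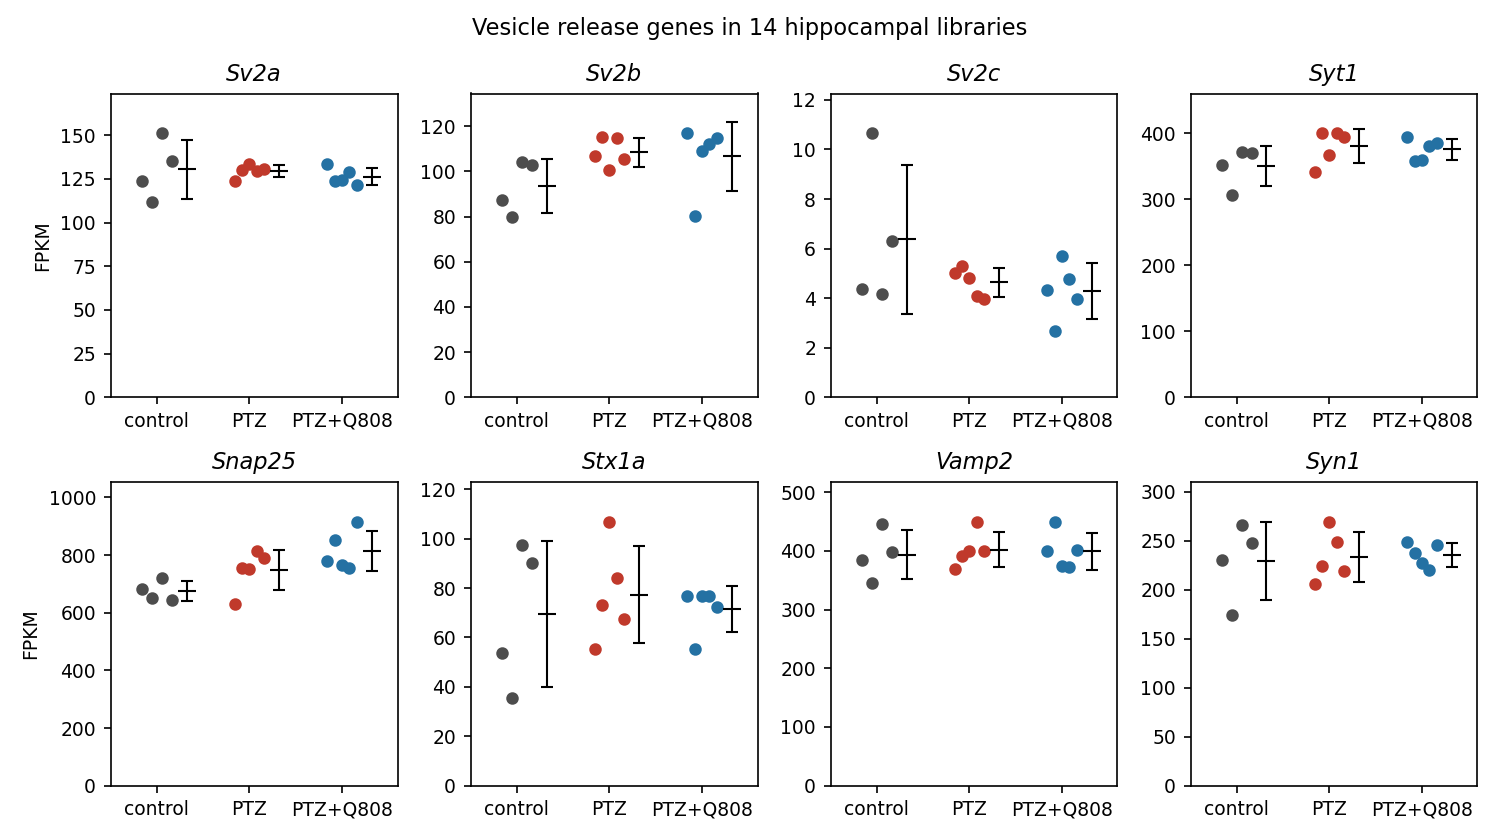
FPKM of the 8 release genes in each library. Each point is 1 library, the horizontal tick and bars beside the points are the group mean and SD, every axis starts at 0, and the groups are control (n = 4), PTZ (n = 5) and PTZ+Q808 (n = 5); Snap25 is the one gene in which all PTZ+Q808 libraries, at 754 or more, lie above all controls, at 722 or less.

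The SV2 family was dominated by 2 members, Sv2a and Sv2b, and Sv2c made up a few percent of its transcripts. In controls, Sv2a was at 130 ± 16.8 FPKM (SD, n = 4), Sv2b at 93.5 ± 12.1 and Sv2c at 6.38 ± 3.01. Expressed as a share of the summed family, Sv2a was 56.6% ± 1.51, Sv2b 40.5% ± 1.14 and Sv2c 2.88% ± 1.65 in controls. In all 14 libraries Sv2a was above Sv2b and Sv2b above Sv2c. SV2A is found at most synapses, SV2B mainly at excitatory ones, and SV2C is largely a protein of the basal ganglia.

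The 250 bases upstream of the 3 SV2 transcription starts are shown so that the windows of these paralogs can be compared. Sequences are from RefSeq, build GRCr8, 5′ to 3′ on the gene's strand, at chr2:186430113-186430362, plus strand (Sv2a), chr1:138562259-138562508, minus strand (Sv2b) and chr2:29163169-29163418, minus strand (Sv2c). Capitals mark the motifs found on either strand among the cyclic AMP response element TGACGTCA, the Egr sites GCGTGGGCG and GCGGGGGCG, and the GC box GGGCGG, which can overlap an Egr site.
Sv2a: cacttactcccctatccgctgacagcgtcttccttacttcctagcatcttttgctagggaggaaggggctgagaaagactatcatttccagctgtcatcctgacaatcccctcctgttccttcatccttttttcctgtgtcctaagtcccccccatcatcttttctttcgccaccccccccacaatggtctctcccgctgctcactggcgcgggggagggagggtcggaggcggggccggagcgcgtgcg
Sv2b: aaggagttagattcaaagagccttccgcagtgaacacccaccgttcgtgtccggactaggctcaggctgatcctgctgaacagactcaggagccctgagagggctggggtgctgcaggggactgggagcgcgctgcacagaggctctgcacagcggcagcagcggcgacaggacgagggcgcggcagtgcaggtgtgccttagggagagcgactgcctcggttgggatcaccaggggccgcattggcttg
Sv2c: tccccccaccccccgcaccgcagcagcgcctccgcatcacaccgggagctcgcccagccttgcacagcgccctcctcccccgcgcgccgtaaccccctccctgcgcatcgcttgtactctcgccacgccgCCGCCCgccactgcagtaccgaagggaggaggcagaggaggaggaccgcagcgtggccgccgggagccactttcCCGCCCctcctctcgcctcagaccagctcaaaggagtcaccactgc
The windows of Sv2a and Sv2b held none of these motifs, and that of Sv2c held 2 GC boxes, 46 and 120 bases upstream, a motif found in 30.5% of 33469 RefSeq promoter windows of this length. Their GC content was 58.0%, 64.0% and 72.0%, against a median of 51.2% over all windows. Neither the AP-1 site TGANTCA, present in 6.34% of all windows, nor TTCAGCACC, the left part of the RE1 element that silences neuronal genes outside neurons and present in 0.305%, was found in any of the 7 members with a RefSeq window. Snap25 had no entry. Only the 250 bases of each window were searched, so a site further upstream or downstream of the start, in Syn1 or any other member, would be missed.

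Sv2a was the steadiest of the SV2 genes and was close to the same mean in every group. The control libraries, replicates 1 to 4, had 124, 112, 151 and 135 FPKM. The PTZ libraries had 124, 130, 134, 129 and 131 FPKM, a mean of 130 ± 3.51 (SD, n = 5), and the PTZ+Q808 libraries had 133, 124, 125, 129 and 121 FPKM, a mean of 126 ± 4.74 (SD, n = 5). All PTZ and PTZ+Q808 libraries lay inside the range of the controls. The log2 change was 0.00 in PTZ against control (95% confidence interval -0.15 to 0.15, limma adjusted p = 0.999). It was -0.04 in PTZ+Q808 against PTZ (-0.18 to 0.10, adjusted p = 0.956) and -0.04 in PTZ+Q808 against control (-0.19 to 0.11, adjusted p = 0.809). On the fold scale of FPKM + 1, the first interval runs from 0.902 to 1.11 and the second from 0.884 to 1.07, so changes beyond these bounds lie outside the intervals. Its residual SD over the 14 libraries was 0.10 on the log2 scale, lower than that of most tested genes (percentile 26.6). The sign of so small a change moved with single libraries: without control replicate 3, the highest of all, Sv2a was 0.07 higher in PTZ and 0.04 higher in PTZ+Q808 than in control, and without control replicate 4 or PTZ replicate 1 the change in PTZ was 0.02 and 0.01.

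Sv2b was at a higher mean in both PTZ-treated groups than in control, without passing the test. The control libraries had 87.1, 79.6, 104 and 103 FPKM. Those of PTZ had 107, 115, 100.4, 115 and 105 FPKM (108 ± 6.37, SD, n = 5), and those of PTZ+Q808 had 117, 80.1, 109, 112 and 115 FPKM (107 ± 15.2, SD, n = 5). Both treated groups overlapped the controls: PTZ replicate 3 lay below control replicates 3 and 4, and PTZ+Q808 replicate 2 lay near the lowest control, while the other 4 PTZ+Q808 libraries lay above every control. The log2 change in PTZ was 0.22 ± 0.11 (SE; limma adjusted p = 0.632), and in PTZ+Q808 against control 0.18 ± 0.11 (adjusted p = 0.354). Between PTZ+Q808 and PTZ it was -0.03 ± 0.10 (adjusted p = 0.972), with an interval of -0.25 to 0.18. Without control replicate 2, the library rich in striatal transcripts, the change was 0.15 in PTZ and 0.11 in PTZ+Q808. Without PTZ+Q808 replicate 2 it was 0.28 in PTZ+Q808 against control (adjusted p = 0.0714) and 0.06 against PTZ. The libraries were also split by the Y-linked transcripts Kdm5d and Eif2s3y. With them, the Sv2b change in PTZ against control was 0.38 (3 against 2 libraries), and without them 0.05 (2 against 2). In PTZ+Q808 against control the 2 values were 0.28 and 0.11. The part of the Y-linked split in the Sv2b values was not tested.

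The balance between Sv2b and Sv2a was read within each library, where overall scaling cancels. The Sv2b to Sv2a ratio of FPKM was 0.704, 0.712, 0.689 and 0.761 in the controls. It was 0.860, 0.884, 0.750, 0.886 and 0.806 in the PTZ libraries, and 0.877, 0.647, 0.876, 0.872 and 0.947 in the PTZ+Q808 libraries. PTZ replicate 3 and PTZ+Q808 replicate 2 fell among or below the controls, and the other 8 treated libraries lay above all 4 of them. The Sv2b share of the family accordingly was 40.5% ± 1.14 in control, 44.7% ± 1.73 in PTZ and 44.8% ± 3.47 in PTZ+Q808 (SD). This ratio was formed after the values had been seen and is given as a description, with no test.

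**Figure D2:**
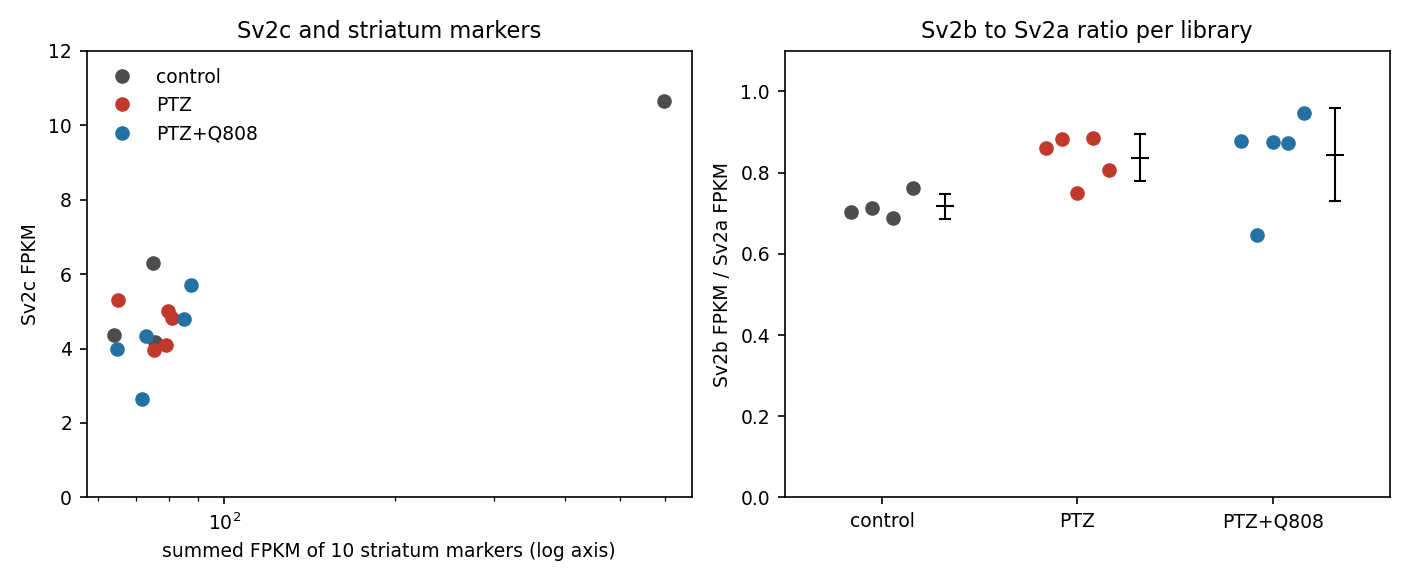
Left, Sv2c FPKM of each library against the summed FPKM of 10 striatum markers on a log axis; right, the Sv2b to Sv2a ratio of FPKM in each library with the group mean and SD. Control replicate 2 is the single library at the upper right of the left panel, with 10.7 FPKM of Sv2c at a marker sum of 599; in the right panel the controls lie between 0.689 and 0.761.

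Sv2c was low, and its control mean was raised by 1 library. The control libraries had 4.37, 10.7, 4.18 and 6.31 FPKM, the PTZ libraries 5.00, 5.30, 4.81, 4.09 and 3.95, and the PTZ+Q808 libraries 4.33, 2.65, 5.71, 4.78 and 3.98. The highest value of all was in control replicate 2 and the lowest in PTZ+Q808 replicate 2, and every pair of groups overlapped. In the same control library all 10 striatal markers were at their highest. The log2 change was -0.32 ± 0.22 in PTZ (SE; limma adjusted p = 0.724) and -0.43 ± 0.22 in PTZ+Q808 against control (adjusted p = 0.276). Without control replicate 2 these became -0.07 and -0.18. PTZ+Q808 differed from PTZ by -0.11 ± 0.20 (adjusted p = 0.956), and by 0.02 without PTZ+Q808 replicate 2.

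Synaptotagmin 1, the calcium sensor of fast release, was at 351 ± 30.5 FPKM in control, 381 ± 25.6 in PTZ and 376 ± 16.3 in PTZ+Q808 (SD). Its range over all libraries was 307 to 400.5 FPKM, and its residual SD of 0.10 on the log2 scale was the smallest of the 8 genes (percentile 22.2). The lowest library was again control replicate 2, and the groups overlapped in every comparison. Its log2 change was 0.12 in PTZ (interval -0.02 to 0.27, limma adjusted p = 0.671), -0.02 in PTZ+Q808 against PTZ (-0.15 to 0.12, adjusted p = 0.978) and 0.10 in PTZ+Q808 against control (-0.04 to 0.25, adjusted p = 0.415). The change in PTZ was 0.06 without control replicate 2. Leaving out PTZ replicate 4 turned the difference between PTZ+Q808 and PTZ to 0.00.

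**Figure D3:**
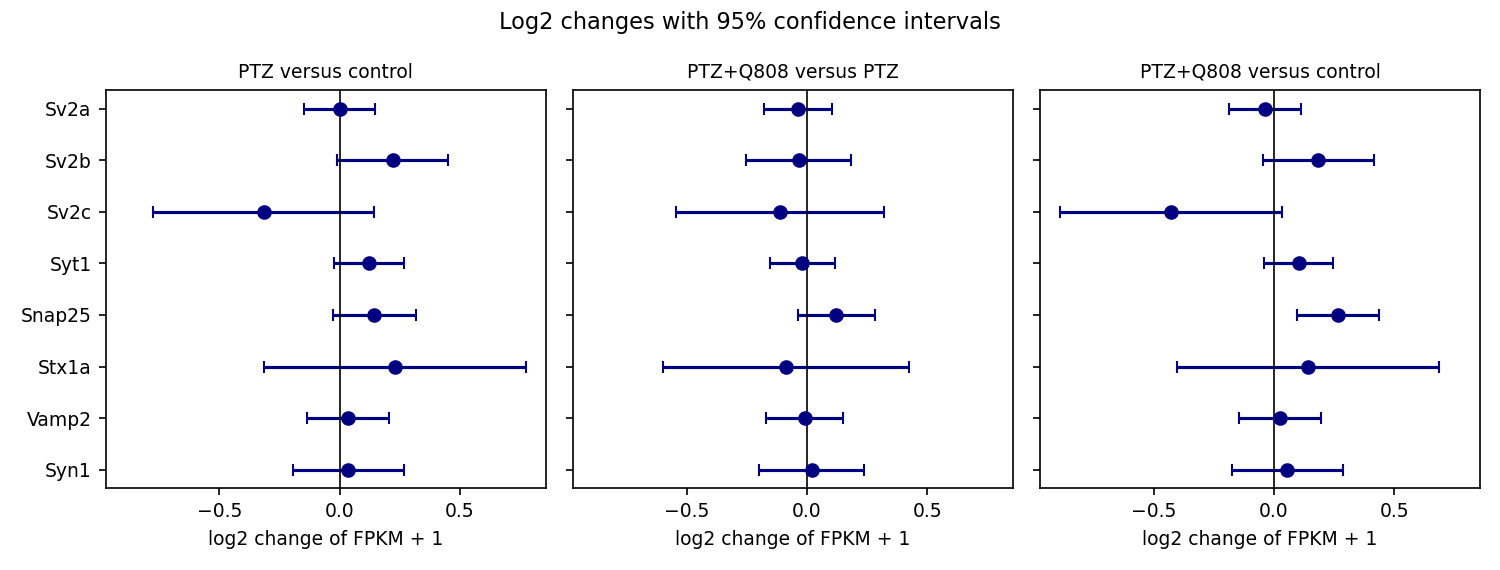
Log2 change of FPKM + 1 for each of the 8 genes in the 3 comparisons. Points are the limma estimates and bars their 95% confidence intervals; the interval of Snap25 in PTZ+Q808 against control, 0.10 to 0.44, is the only one that does not cross 0, and its adjusted p was 0.0813.

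Of the SNARE proteins, Snap25 was the most abundant gene of the set and the one with the largest separation between groups relative to its spread. The control libraries had 683, 652, 722 and 643 FPKM (675 ± 35.8, SD, n = 4). The PTZ libraries had 631, 753, 751, 813 and 790 FPKM (748 ± 70.0, SD, n = 5), and the PTZ+Q808 libraries had 780, 853, 765, 754 and 916 FPKM (814 ± 69.0, SD, n = 5). All PTZ+Q808 libraries were above all controls, which was also so, in this direction, of 4.75% of all tested genes. Of the PTZ libraries 4 were above all controls, and PTZ replicate 1 was the lowest library of the series.

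Against control, the log2 change of Snap25 in PTZ+Q808 was 0.27 ± 0.08 (SE; interval 0.10 to 0.44; unadjusted p = 0.00475), and it did not pass with a limma adjusted p of 0.0813. The adjusted p ran from 0.0309 to 0.200 over the 26 alternatives in processing. It fell under the threshold with quantile normalization (0.0309) and with a weight for each library (0.0383). The log2 change was 0.25 among libraries with Y-linked transcripts (3 against 2) and 0.30 among those without (2 against 2). For 4 other genes the same split gave opposite signs in this comparison: with and without Y-linked transcripts, the change was 0.13 and -0.22 for Sv2a, 0.64 and -0.33 for Stx1a, 0.15 and -0.12 for Vamp2, and 0.23 and -0.12 for Syn1. In PTZ against control the split gave opposite signs for Sv2a alone, at 0.12 and -0.12. Over all libraries, the Snap25 change was 0.14 ± 0.08 in PTZ against control (limma adjusted p = 0.671). It was 0.12 ± 0.08 in PTZ+Q808 against PTZ (adjusted p = 0.838). Of the 10 pan-neuronal markers, 1, Elavl4, was called higher in PTZ+Q808 than in control, where 2.87% of all tested genes were called. Of these markers 5 of 10 had a log2 change above 0, beside 44.7% of all genes. At a limma unadjusted p under 0.05 there were 4 of 10 (3 higher, 1 lower), beside 20.7% of all genes. The part of neuronal content in the Snap25 values was not tested.

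Stx1a varied widely, by the residual SD of log2(FPKM + 1) the most of the 8 genes; by the ratio of its highest to its lowest FPKM Sv2c varied more, at 4.02. The control libraries had 53.8, 35.7, 97.6 and 90.3 FPKM, the PTZ libraries 55.2, 73.0, 107, 84.1 and 67.5, and the PTZ+Q808 libraries 76.7, 55.2, 76.6, 76.7 and 72.3. Its largest value was 3.00 times its smallest, and its residual SD of 0.43 on the log2 scale stood at percentile 95.3 of all tested genes. Controls alone covered most of the range of the series. The controls with Y-linked transcripts, replicates 1 and 2, had 53.8 and 35.7 FPKM, and those without 97.6 and 90.3. In PTZ the libraries with them had 55.2, 73.0 and 67.5 FPKM, and those without 107 and 84.1. In PTZ+Q808 the values overlapped, at 76.7, 55.2 and 76.7 with and 76.6 and 72.3 without. The part of this split in the spread of Stx1a was not tested. The log2 change was 0.23 ± 0.25 in PTZ (SE; limma adjusted p = 0.836), -0.09 ± 0.24 in PTZ+Q808 against PTZ (adjusted p = 0.969) and 0.14 ± 0.25 in PTZ+Q808 against control (adjusted p = 0.803). The interval in PTZ, -0.31 to 0.77, leaves room for a change of more than 1.5-fold. Without control replicate 2 the changes against control became -0.05 in PTZ and -0.13 in PTZ+Q808. Without PTZ replicate 3, or without PTZ+Q808 replicate 2, the difference between PTZ+Q808 and PTZ became 0.04 or 0.00. In PTZ against control the change was 0.55 among libraries with Y-linked transcripts and 0.01 among those without.

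Vamp2, the vesicle SNARE, was nearly level across the groups. It was at 394 ± 41.3 FPKM in control, 402 ± 29.7 in PTZ and 399 ± 31.1 in PTZ+Q808 (SD), within a range of 345 to 450 FPKM. Its log2 change was 0.03 in PTZ (interval -0.14 to 0.20, limma adjusted p = 0.938), -0.01 in PTZ+Q808 against PTZ (-0.17 to 0.15, adjusted p = 0.990) and 0.02 in PTZ+Q808 against control (-0.15 to 0.19, adjusted p = 0.897). The sign of each depended on single libraries. Without control replicate 2 the values against control were -0.03 and -0.04. Without PTZ replicate 4 PTZ stood at -0.01 against control and PTZ+Q808 at 0.03 against PTZ. Without PTZ+Q808 replicate 2 the change against control was -0.02, and without PTZ+Q808 replicate 3 or 4 that against PTZ was 0.01 or 0.02.

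Synapsin I, which holds vesicles in the reserve pool, was at 229 ± 39.8 FPKM in control, 233 ± 25.4 in PTZ and 236 ± 12.3 in PTZ+Q808 (SD). The log2 change was 0.04 in PTZ (interval -0.19 to 0.27, limma adjusted p = 0.954), 0.02 in PTZ+Q808 against PTZ (-0.20 to 0.24, adjusted p = 0.984) and 0.06 in PTZ+Q808 against control (-0.18 to 0.29, adjusted p = 0.818). Control replicate 2, at 174 FPKM, was the lowest library, and without it the values against control were -0.09 and -0.07. The change in PTZ was -0.02 without PTZ replicate 3. Against PTZ the value was -0.02 without PTZ replicate 1, and 0.00 without PTZ replicate 5 or PTZ+Q808 replicate 1. In RefSeq, Syn1 overlaps 3 genes, LOC102555453, Araf and Timp1, an inhibitor of matrix metalloproteinases. Snap25, Syt1 and Sv2c overlap 2, 6 and 1 other RefSeq genes. Whether the authors counted by strand is not given in the sources used here. Timp1 was at 2.14 to 11.1 FPKM, far below Syn1, and the levels of the other overlapping genes are not given here.

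The Syn1 promoter is shown because it was the only one of 7 with a full cyclic AMP response element, the binding sequence of the activity-dependent factor CREB. The window is RefSeq GRCr8 chrX:3725495-3725744, plus strand, 5′ to 3′ on the gene's strand, with capitals as above.
Syn1: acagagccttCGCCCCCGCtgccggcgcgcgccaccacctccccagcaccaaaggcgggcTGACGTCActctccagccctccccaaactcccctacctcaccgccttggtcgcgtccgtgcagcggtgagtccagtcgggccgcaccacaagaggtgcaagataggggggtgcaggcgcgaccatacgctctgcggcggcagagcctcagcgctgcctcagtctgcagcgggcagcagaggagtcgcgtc
The element TGACGTCA begins 190 bases upstream of the start and is palindromic, and it was present in 1.59% of all promoter windows. An Egr site, GCGGGGGCG on the opposite strand, lies 240 bases upstream, and this form was present in 3 of the 7 members, Syt1, Vamp2 and Syn1, against 2.45% of all windows. Vamp2 also held the form GCGTGGGCG, present in 0.478% of windows. The windows of Syt1, Vamp2 and Syn1 had a GC content of 66.0%, 68.0% and 69.6%, against a median of 51.2% over all windows. The shares of all windows are not matched for GC content, so the Egr sites cannot be read as an excess. A match is a description of the letters in the window and no evidence of binding.

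In level, the 8 genes kept the same order of means in all 3 groups. From high to low it was Snap25, Vamp2, Syt1, Syn1, Sv2a, Sv2b, Stx1a and Sv2c. By mean FPKM in control, Snap25 held rank 46 of the 22601 genes, Vamp2 116, Syt1 139, Syn1 281, Sv2a 546, Sv2b 789, Stx1a 1093 and Sv2c 7834. Vamp2 and Syt1 overlapped in range in each group, and so did Sv2b and Stx1a in control and PTZ. The controls of the other neighbours in this order did not overlap.

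Some libraries were high or low for several of the genes at once. Control replicate 2 was the lowest of all 14 libraries for 6 of the 8 genes, namely Sv2a, Sv2b, Syt1, Stx1a, Vamp2 and Syn1, and the highest for Sv2c. It also held the lowest sum of 5 excitatory neuron markers, 1324 FPKM against 1375 to 1796 in the other libraries, and the highest sum of 6 oligodendrocyte markers, 6904 FPKM against 2532 to 5970. Control replicate 3 was the highest library for Sv2a. PTZ+Q808 replicate 2 was low for Sv2b, Sv2c and Stx1a within its group and high for Snap25 and Vamp2.

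**Figure D4:**
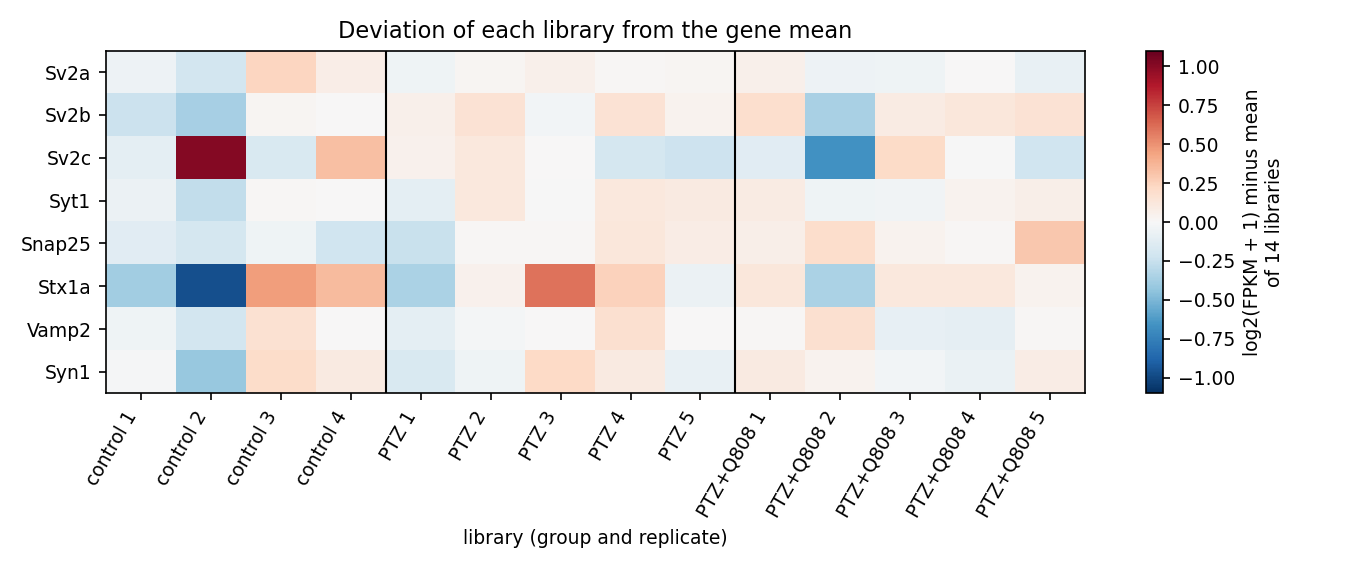
Difference of log2(FPKM + 1) from the mean of the 14 libraries, with genes as lines and libraries as columns, and vertical lines between control, PTZ and PTZ+Q808. Blue is below and red above the gene's mean; control replicate 2 is below it for 7 genes and above it for Sv2c.

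The wider release machinery was read from a list of 118 further genes, of which 116 were tested; Slc18a2 and Slc18a3, the vesicular transporters for monoamines and acetylcholine, stayed below the filter at no more than 0.569 and 1.78 FPKM. By limma, 0 of 116 were called in each comparison, against 0.0314%, 0% and 2.87% of all tested genes. At an unadjusted p under 0.05 there were 11 in PTZ against control (9 higher, 2 lower), 2 in PTZ+Q808 against PTZ (both higher) and 17 in PTZ+Q808 against control (14 higher, 3 lower). As shares these are 9.48%, 1.72% and 14.7%, beside 8.11%, 6.14% and 20.7% of all tested genes. The median log2 change of the list was 0.04, -0.01 and 0.02, beside -0.01, 0.00 and -0.02 over all genes.

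Grouped by role, the classes of the list differed little in PTZ against control, with medians from -0.01 to 0.10. Of 17 calcium sensors and priming factors 12 had a log2 change above 0, with a median of 0.06. Of 11 SNARE proteins 7 were above 0 (median 0.02), and of 16 SNARE regulators such as the complexins 12 were (median 0.08). Active zone scaffolds were above 0 in 11 of 15 (median 0.10). Synapsins and vesicle membrane proteins were above 0 in 14 of 22 (median 0.03), transporters and proton pump subunits that load vesicles in 5 of 11 (median -0.01), and endocytosis genes in 17 of 24 (median 0.03). Over all tested genes 46.3% were above 0. So were 7 of 10 pan-neuronal markers (median 0.05), 5 of 5 excitatory neuron markers (median 0.06) and 2 of 6 tested interneuron markers (median -0.04). The part of neuronal content in the class medians was not tested. Genes with an unadjusted p under 0.05 numbered 2 of the calcium sensors, 0 of the SNARE proteins, 2 of the SNARE regulators, 2 of the scaffolds, 2 of the membrane proteins, 1 of the loading genes and 2 of the endocytosis genes, beside 8.11% of all genes.

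Against PTZ, the PTZ+Q808 group had 13 of 16 SNARE regulators and 11 of 15 active zone scaffolds at a log2 change under 0, with medians of -0.03 and -0.06. Calcium sensors were under 0 in 10 of 17 and endocytosis genes in 17 of 24, while 7 of 11 SNARE proteins, 13 of 22 synapsins and membrane proteins and 8 of 11 loading genes were above 0. The share of all genes above 0 was 48.3%, and 7 of 10 pan-neuronal, 0 of 5 excitatory neuron and 4 of 6 tested interneuron markers were above 0. Against control, 69 of 116 release genes and 44.7% of all genes were above 0 in PTZ+Q808, and medians of the 7 classes ran from -0.01 for SNARE proteins to 0.05 for SNARE regulators. The largest change on the list was that of Sncg, gamma-synuclein, chosen here after its values were seen, at -1.49 ± 0.78 (SE; limma adjusted p = 0.298) in PTZ+Q808 against control.

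**Figure D5:**
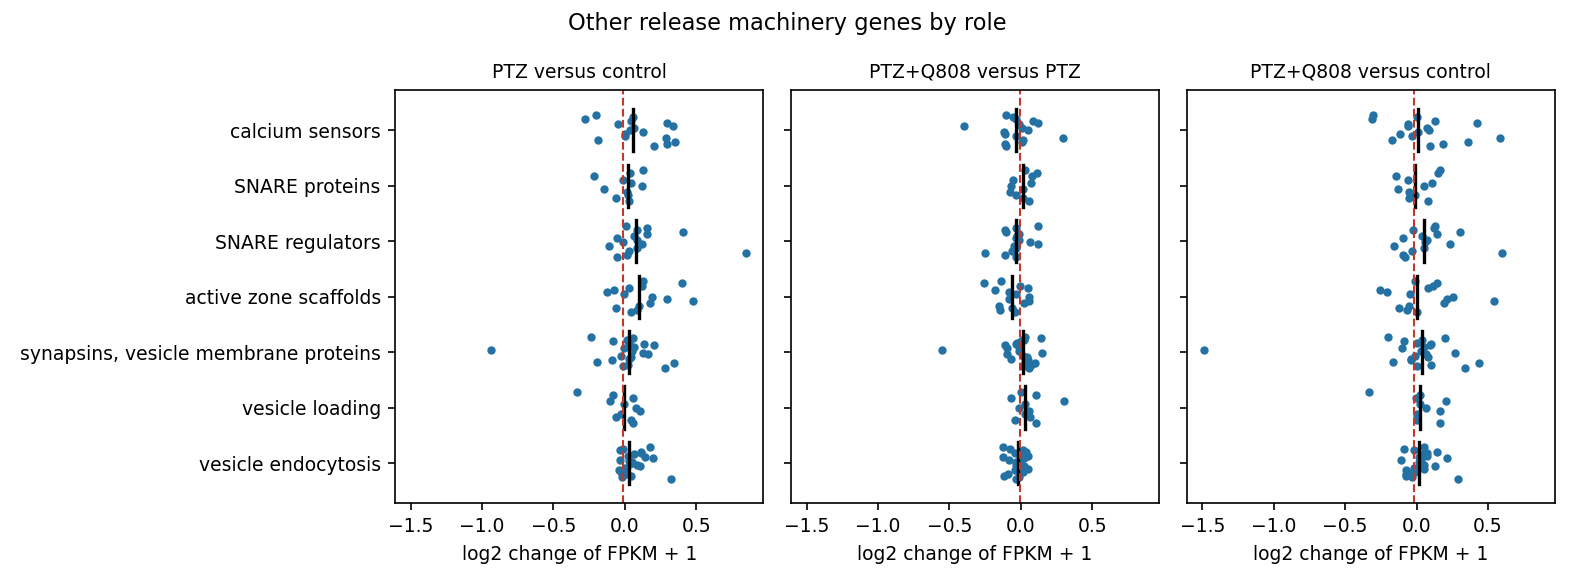
Log2 change of FPKM + 1 of the 116 other release genes by role in the 3 comparisons. Each point is 1 gene, the black mark is the median of the role, and the dashed red line is the median of all 12744 tested genes; medians of the roles lie between -0.06 and 0.10.

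The 3 genes of the list with the smallest p in PTZ against control did not pass the test. Cadps2, a priming factor of dense-core vesicles, was at 10.3 ± 1.53 FPKM in control and 12.8 ± 0.907 in PTZ (SD). Its log2 change was 0.29 ± 0.09 (SE, limma adjusted p = 0.416). All PTZ libraries lay above all controls. The groups did not overlap, in either direction, for 5 of the 116 genes and for 3.03% of all tested genes. Slc32a1, the vesicular GABA transporter of inhibitory terminals, was at 39.0, 58.6, 40.8 and 37.9 FPKM in control and at 35.0, 33.3, 34.5, 34.9 and 33.2 in PTZ. The groups did not overlap, as was so, in either direction, for 3.03% of all genes, and the log2 change was -0.34 ± 0.11 (adjusted p = 0.483). It was -0.19 without control replicate 2, which held the highest value. Syt4, a synaptotagmin whose transcript is induced by neuronal activity, was at 54.1 ± 2.06 FPKM in control and 67.5 ± 11.9 in PTZ (SD), a log2 change of 0.30 ± 0.12 (adjusted p = 0.564).

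In PTZ+Q808 against PTZ the 3 smallest p belonged to Slc17a6, Vamp4 and Rimbp2, and none passed. Slc17a6, the vesicular glutamate transporter VGLUT2, was at 3.65 ± 0.679 FPKM in PTZ and 4.74 ± 0.813 in PTZ+Q808 (SD), a log2 change of 0.31 ± 0.13 (SE; limma adjusted p = 0.770). Vamp4, a SNARE of the endosomal pathway, was at 17.7 ± 0.923 and 19.2 ± 0.652 FPKM, a log2 change of 0.11 ± 0.05 (adjusted p = 0.776). Rimbp2, an active zone protein that links RIM to calcium channels, was at 14.9 ± 1.07 and 13.0 ± 0.804 FPKM, a log2 change of -0.18 ± 0.09 (adjusted p = 0.811). In each of them the groups overlapped.

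Syt4, Napb and Ppfia4 had the smallest p in PTZ+Q808 against control, and in each the groups did not overlap. Over the whole list this held in either direction for 5 of the 116 genes, beside 8.91% of all tested genes. Syt4 was at 54.3, 51.4, 54.3 and 56.4 FPKM in control and at 77.1, 63.3, 74.1, 64.2 and 87.3 in PTZ+Q808. Its log2 change was 0.42 ± 0.12 (SE; limma adjusted p = 0.0647). Over the alternatives the adjusted p of Syt4 ran from 0.0182 to 0.246; it passed with weights per library (0.0182), with a Y-linked term (0.0375), without PTZ replicate 4 (0.0334) and without PTZ+Q808 replicate 4 (0.0431). Napb, beta-SNAP, which with NSF takes SNARE complexes apart, was at 115 ± 10.3 FPKM in control and 136 ± 4.92 in PTZ+Q808 (SD), a log2 change of 0.23 ± 0.07 (adjusted p = 0.0777). Ppfia4, liprin-alpha-4, an active zone scaffold, was at 17.8 ± 0.633 and 15.2 ± 0.279 FPKM, a log2 change of -0.21 ± 0.06 (adjusted p = 0.0824).

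Among 8328 genes with a mean FPKM of at least 5, those whose log2 values ran most like each SV2 gene over the 14 libraries were named; the values are descriptions, since all genes share library composition and scaling. For Sv2a they included Kcnj9 (Pearson r = 0.92), a G protein-gated potassium channel, and Ap2a1 (0.92), a subunit of the clathrin adaptor AP-2. For Sv2b they included Ankrd33b and Nwd2, both at 0.90. For Sv2c they were Pacsin2 (0.94), Pde10a (0.90) and Adcy5 (0.90), and the last pair are a phosphodiesterase and an adenylyl cyclase rich in striatal neurons. Without control replicate 2 the r of the Sv2c genes was 0.84, 0.74 and 0.82. That of Kcnj9 and Ap2a1 with Sv2a was then 0.89 and 0.90, and that of Ankrd33b and Nwd2 with Sv2b 0.89 and 0.87. Other single libraries moved some of them further. Over all single omissions, r ran from 0.89 to 0.93 for Kcnj9 and from 0.84 to 0.94 for Ap2a1. It ran from 0.86 to 0.92 for Ankrd33b and from 0.87 to 0.97 for Nwd2, which was at 0.81 with quantile normalization.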

How the data were processed

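The authors deposited FPKM values for each of 14 hippocampal libraries. Per the submitters' processing notes, HISAT2, Bowtie2, Trimmomatic, SAMtools, StringTie, Cufflinks, HTSeq and DESeq were used, with no role, version or genome build. Per the labels' protocols, mRNA was captured on beads from TRIzol-extracted RNA and sequenced on a BGI T7. FPKM values keep no absolute depth, so no counting interval is given; their sums ran from 383126 to 419358 per library, and Spearman's rho between libraries from 0.980 to 0.988.

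Genes with FPKM of at least 1 in at least 4 libraries (12744 of 22601) were fitted as log2(FPKM + 1) by limma version 3.58.1 under R version 4.3.3 (tables read by data.table, version 1.17.8), using a trended prior, 3 groups in 1 fit and 11 residual degrees of freedom. The pseudocount of 1 understates changes of low genes. Tests were two-sided, with Benjamini-Hochberg adjustment over all 12744 genes and calls at an adjusted p under 0.05. The steps were tested on simulated data. Python 3.11.15, pandas 2.3.3, numpy 2.4.6 and matplotlib 3.10.9 served for summaries and plots.

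The members and gene lists were chosen with earlier results of these data known. Named genes were the 8 members, the 3 other release genes with the smallest p in a comparison where fewer than 3 were called, and the 3 genes of highest r with each SV2 gene, of which some are not reported here. Replicate numbers are in the labels of all groups, but of 13 same-numbered pairs only 2 had deviations correlated at over 0.1 (range -0.280 to 0.143), so they were not taken as pairs. Alternatives were other scalings, filters, pseudocounts, weights, terms and omitted libraries. Libraries with Y-linked transcripts numbered 2 in control, 3 in PTZ and 3 in PTZ+Q808. Promoters were read from RefSeq GRCr8, which may not be the authors' build.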

Additional observations from a re-analysis of the deposited data

Results flagged for a closer look

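Of 48 gene and group pairs (the 8 members and the 8 named release genes in 3 groups), 4 held a library marked as an outlier. In these, the gap to the nearest neighbour divided by the range of the group exceeded Dixon's 95% critical value for the group's size. Chance alone marks about 1 in 20, and the pairs share the same 14 libraries, so they are not independent. PTZ+Q808 replicate 2 had 80.1 FPKM of Sv2b, where the 4 libraries beside it had 109 to 117, and 55.2 FPKM of Stx1a, where they had 72.3 to 76.7. Napb was at 100.04 FPKM in control replicate 2, against 119 to 121 in the other controls, and Slc32a1 was at 58.6 FPKM there, against 37.9 to 40.8. Control replicate 2 is the library with the high striatal markers, and PTZ+Q808 replicate 2 the one of lowest relative depth, 0.858; their part in these values was not tested.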

How the results depend on the processing

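Over 26 alternatives for each of the 24 member changes, 579 of 624 values kept direction and side of the threshold, 43 changed sign and 2 newly passed. No sign change came with a passed test. Some alternatives return the main log2 change of a member by construction. These are another filter, the fit of only the 2 groups compared, and omission of a library from the group not compared. Such values could not change sign, so the 579 overstates how steady the directions were. In PTZ against control Sv2a was 0.012 with median-of-ratios scaling, 0.015 with equal totals, 0.018 with quantile normalization, 0.0051 with the replicate block, 0.0066 with a Y-linked term and 0.071 without the 3 libraries low in Ttr. Without the libraries rich in striatal or pituitary transcripts (control replicate 2 and PTZ+Q808 replicate 3), Stx1a, Vamp2 and Syn1 stood at -0.048, -0.027 and -0.091 in PTZ against control and at -0.16, -0.014 and -0.058 in PTZ+Q808 against control, and Vamp2 at 0.013 in PTZ+Q808 against PTZ. With weights per library Syn1 was -0.014 in PTZ against control, Sv2b 0.024 in PTZ+Q808 against PTZ and Vamp2 -0.0036 in PTZ+Q808 against control. In PTZ+Q808 against PTZ Syn1 was -0.0047 with quantile normalization and -0.013 without the libraries low in Ttr, and without these Sv2a was 0.016 in PTZ+Q808 against control. Leaving out single libraries gave Sv2a -0.072 to 0.073, Stx1a -0.048 to 0.43, Vamp2 -0.027 to 0.095 and Syn1 -0.091 to 0.11 in PTZ against control. In PTZ+Q808 against PTZ it gave Sv2b -0.071 to 0.064, Sv2c -0.20 to 0.015, Syt1 -0.056 to 0.000399, Stx1a -0.20 to 0.037, Vamp2 -0.053 to 0.032 and Syn1 -0.024 to 0.073. In PTZ+Q808 against control it gave Sv2a -0.11 to 0.036, Stx1a -0.13 to 0.34, Vamp2 -0.037 to 0.086 and Syn1 -0.071 to 0.13. Members called in PTZ+Q808 against control numbered 1 (Snap25) with quantile normalization, beside 369 of all genes, and 1 with weights, beside 1100, and 0 otherwise. Of the other release genes, 5 were called in that comparison with weights (Napb, Ppfia4, Rimbp2, Syt10 and Syt4), beside the same 1100 of all genes, 1 with a Y-linked term (Syt4), beside 564, and 0 to 1 with single libraries left out: 1 each without control replicate 2 (Rimbp2), PTZ replicate 4 (Syt4), PTZ+Q808 replicate 2 (Syt10) or PTZ+Q808 replicate 4 (Syt4). With the replicate block 0 members were called in each comparison (Snap25 adjusted p = 0.191), and of all genes 0, 0 and 4, and without the libraries low in Ttr 0 of all genes were called in PTZ+Q808 against control. Slc17a6 has no value at a minimum FPKM of 5. The cause of these shifts was not tested.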
